A study of Homo sapiens with 16 samples.

Results

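SESN1, SESN2, TIGAR, DRAM1, GLS2 and FDXR are 6 genes of stress metabolism and autophagy known as p53 targets, and the binding of p53 and of CTCF around them was read from ChIP-seq peak lists. The genes were chosen by name, and every peak within 50 kb of the body of each gene (GENCODE on hg19) was counted. For each factor, peaks from its 4 libraries were joined into a site where they shared 1 bp or more, which gave 8 p53 sites of 2980 in all and 13 CTCF sites of 29064. These sites held 11 of 5699 p53 peaks and 35 of 71164 CTCF peaks. The study mapped both factors in MCF10A cells, an immortalized breast epithelial line of human origin that does not form tumours, and in G12V cells, the same line after lentiviral transduction with the G12V form of HRAS, a GFP vector and hygromycin selection. The G12V cells are therefore a selected pool, and whether the MCF10A cells received any vector is not stated in the methods. In both cell types, the cells for p53 were treated with Nutlin, which releases p53 from its ubiquitin ligase MDM2, and no such treatment is given for the CTCF samples. Of 16 samples, 8 were ChIP libraries with a peak list (2 biological replicates for each factor and cell type), whereas the 8 inputs served as controls in peak calling and have no list.

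p53 is a transcription factor that binds DNA as a tetramer on a pair of abutting decamer half-sites and raises the transcription of many stress-response genes. Besides cell cycle arrest and apoptosis genes, its targets include metabolic genes that adjust glucose and glutamine use, limit oxidative damage and promote lysosomal degradation. CTCF recognises, through its zinc fingers, a long asymmetric motif at insulators and the borders of chromatin loops, in nearly all cell types.

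The p53 libraries differed widely in list length. MCF10A replicates 1 and 2 held 1718 and 885 p53 peaks and G12V replicates 1 and 2 held 477 and 2619. The number of reads at which the peaks were called, recovered from the lists in units of 1e6 reads (M), was 21.4 and 20.1 M in MCF10A replicates 1 and 2 and 9.26 and 23.9 M in G12V replicates 1 and 2 for p53, and ranged from 10.7 to 13.5 M for CTCF. In G12V replicate 2 for p53 and in all CTCF libraries, the ChIP reads had been scaled down to the input for calling. These libraries thus held more ChIP reads than the number given. By the study's own listing, G12V replicate 2 had the most aligned reads of the p53 ChIP libraries. Pileups below are in reads after this scaling. The CTCF lists held 11346 to 27678 peaks. Peak names in the p53 list of G12V replicate 1, the shallowest and shortest, carry the tag "old", whose meaning is not stated. Absence of a peak means that none was detectable at the depth and scaling of the library, not that the factor was absent.

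Of the 8 p53 sites, 4 held a p53 motif within 75 bp of the summit, the base of highest read pileup. The motif was searched as 2 abutting half-sites of 10 bases, each with 3 purines, C, a pair of A or T bases, G and 3 pyrimidines, with C and G intact and at most 3 mismatches elsewhere. Over all p53 sites, 70.4% held one. The 4 stretches are shown because they are the candidate contact sequences for p53 at these genes, with the motif in capitals and each on the strand of its gene, 5′ to 3′ in hg19. They are from chr6:109330216-109330245, minus strand (SESN1), chr1:28568503-28568602, plus strand (upstream of SESN2), chr12:102249239-102249338, plus strand (upstream of DRAM1), and chr17:72869116-72869145, minus strand (FDXR).
SESN1: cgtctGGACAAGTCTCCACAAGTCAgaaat
SESN2 upstream: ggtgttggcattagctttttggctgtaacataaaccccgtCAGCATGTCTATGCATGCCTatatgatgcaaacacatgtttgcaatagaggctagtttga
DRAM1 upstream: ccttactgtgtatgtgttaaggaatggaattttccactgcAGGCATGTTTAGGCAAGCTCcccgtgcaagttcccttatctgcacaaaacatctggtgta
FDXR: ggcccGGGCAGGAGCGGGCTTGCCCtgcgg

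The DRAM1 upstream motif matched with 0 mismatches, and the SESN2 upstream motif had 2, 1 in each half-site. SESN1 and FDXR each had 3 mismatches, all in a single half-site. In SESN1 the first half-site matched fully and the second held all 3, and in FDXR the order was the other way round. At FDXR, a pair of half-sites 10 bases apart, in place of the abutting pair, lowered the mismatches to 2. The sites in SESN2 intron 1, in TIGAR, at the DRAM1 start and downstream of GLS2 held no match in this window, nor with a window of 300 bp, a spacer of up to 13 bases, or the whole merged site searched. Within 75 bp of the summit, none of the 8 sites held the AP-1 motif, TGAGTCA or TGACTCA, against 6.71% of all p53 sites. The letters say only what these windows contain.

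A p53 site lay within 50 kb of each of the 6 genes, against 18.9% of 20136 protein-coding genes. No site had a peak in all 4 p53 libraries, so 0 of 6 genes had such a site, against 2.4% of all genes. By library, MCF10A replicate 1 had a peak near 4 of the 6 genes (10.7% of all genes), MCF10A replicate 2 near 0 (5.92%), G12V replicate 1 near 0 (3.48%) and G12V replicate 2 near 6 (17.1%). The peaks came from the longest list of each cell type, 4 from MCF10A replicate 1 and 7 from G12V replicate 2. In each cell type, 1 replicate had peaks near these genes and the other had none, so no site was present in both libraries of a cell type. How often this holds over all p53 sites was not counted. Since the genes were listed as p53 targets, these shares describe them and are no test. The windows were slightly longer than usual, with a median of 137620 bp against 127217 bp over all genes.

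**Figure D1:**
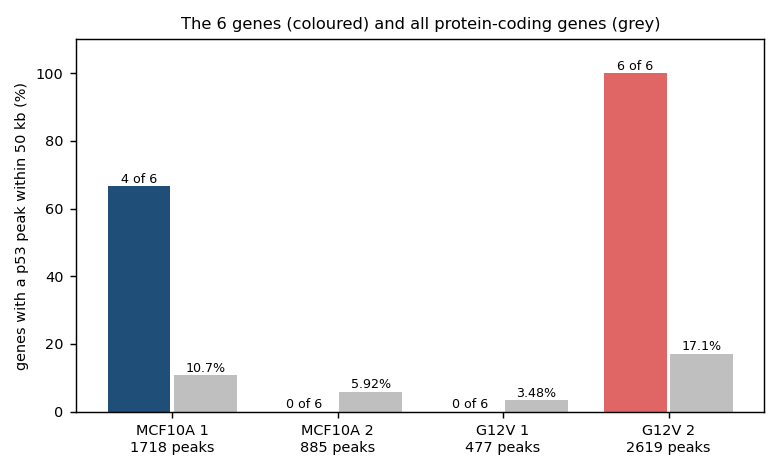
Share of genes (y axis, %) with a p53 peak within 50 kb of the gene body, for the 6 genes (coloured bars, with the number of genes) and all 20136 protein-coding genes (grey bars), in each p53 library (x axis, with the number of peaks in its list). MCF10A replicate 1 and G12V replicate 2 had peaks near 4 and 6 of the genes and the other libraries near 0.

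Most p53 sites were near transcription starts. The summit lay within 1 kb of the start of a coding transcript of the gene itself for 5 of 6 genes, all but GLS2, against 1.15% of all protein-coding genes. With a promoter set as 1000 bp upstream to 500 bp downstream of a coding start, 4 of the 8 summits were at a promoter, against 6.38% of all p53 sites. Of the motifs above, those in SESN1 and FDXR were at promoters, and those upstream of SESN2 and DRAM1 were not.

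**Figure D2:**
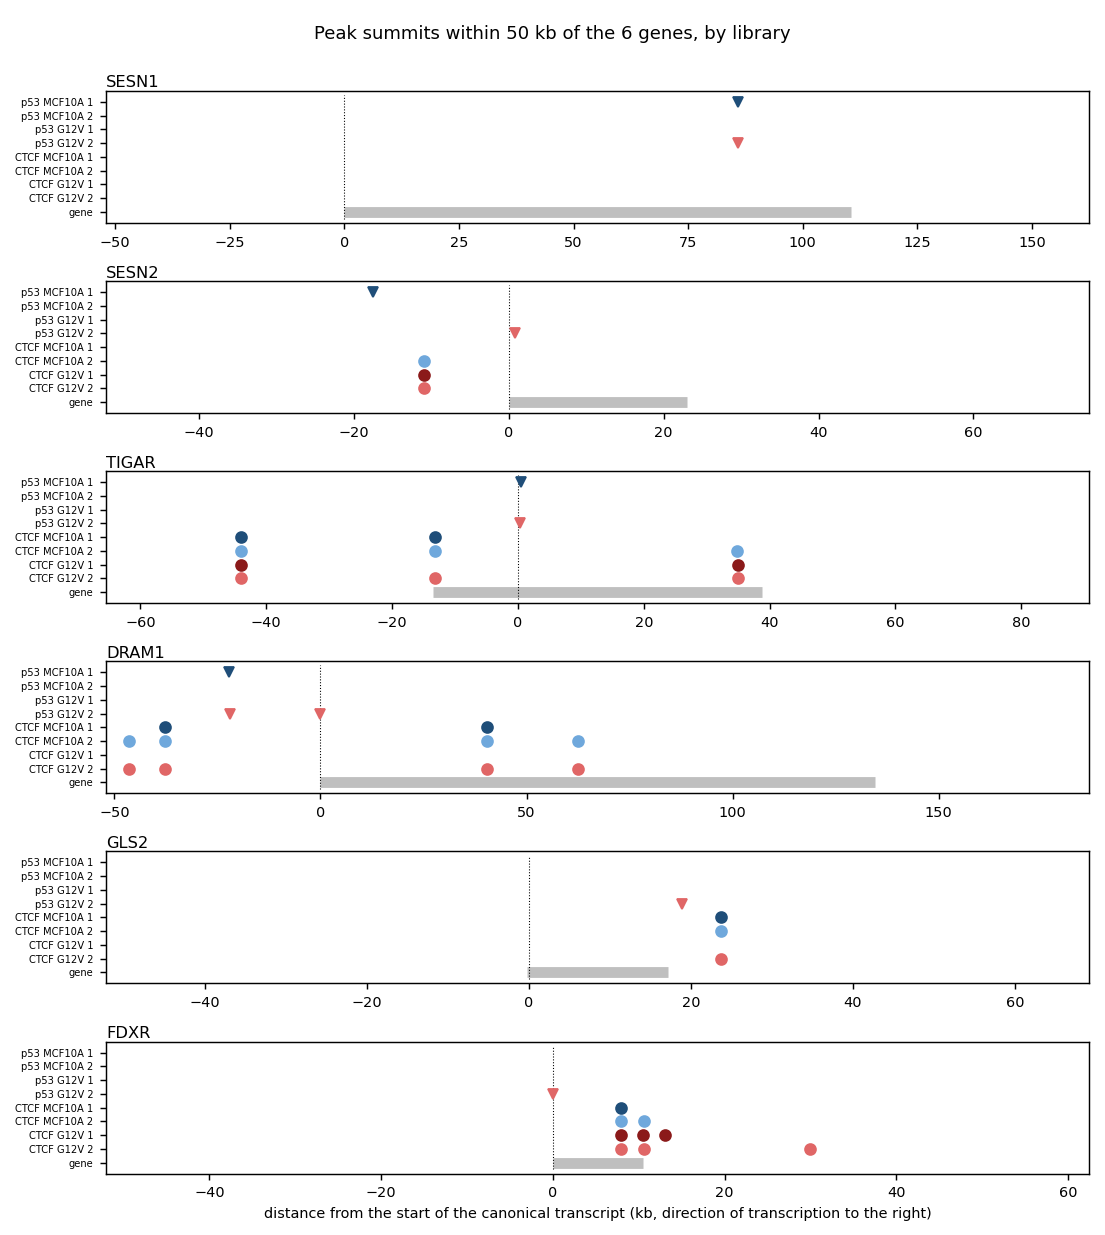
Position of peak summits in the 6 gene windows, by distance from the start of the canonical transcript (x axis, kb, transcription to the right), with a row for each library (triangles, p53; circles, CTCF), the annotated gene body as a grey bar and the canonical start as a dotted line. p53 summits stood near the canonical start of SESN2, TIGAR, DRAM1 and FDXR, deep inside SESN1 and past the end of GLS2, and the SESN1 window held no CTCF summit.

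SESN1 encodes a sestrin, a stress-induced protein that restrains mTORC1 signalling and helps to limit peroxides. Its single p53 site, chr6:109329988-109330691, was in intron 1 of the canonical transcript, 85782 bp downstream of the annotated 5′ end. The summit was 76 bp upstream of the start of a shorter coding transcript, so the site was at an internal promoter of the gene. It was the strongest p53 peak near the 6 genes. In G12V replicate 2 the peak had a fold enrichment (summit pileup over local background, each plus 1) of 17.3, with a pileup of 53.4 reads over a background of 2.14, and ranked 455 of 2619 by −log10 q. In MCF10A replicate 1 the fold was 7.37, from 18.0 reads over 1.58, and the rank was 1129 of 1718. Neither MCF10A replicate 2 nor G12V replicate 1 had a peak there.

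SESN2 encodes the sestrin that senses leucine upstream of mTORC1. Its window held 2 p53 sites, each seen in a single library, and not the same library. One, chr1:28586694-28586949, was in SESN2 intron 1, 776 bp downstream of the start, and was called in G12V replicate 2 with a fold of 9.71 (28.1 reads over 2.00, rank 1102 of 2619). The other, chr1:28568351-28568664, was 17511 bp upstream of SESN2 and was called in MCF10A replicate 1 with a fold of 10.9 (27.0 reads over 1.58, rank 629 of 1718). It was the highest ranked member peak of that library and the only member site that G12V replicate 2 lacked. The upstream site was inside ATP5IF1, which encodes an inhibitor of the mitochondrial ATP synthase, and the start of ATP5IF1, 5853 bp away, was the nearest one. The motif was thus in the upstream site and not in the intronic one.

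TIGAR encodes a fructose-2,6-bisphosphatase that lowers glycolysis and favours the pentose phosphate pathway. The p53 site, chr12:4430345-4430915, was in intron 1, 292 bp downstream of the canonical start. A longer annotated transcript places the 5′ end of the gene further upstream, 13742 bp from the summit. The fold was 8.53 in G12V replicate 2 (26.0 reads over 2.16, rank 1309 of 2619) and 5.08 in MCF10A replicate 1 (10.0 reads over 1.16, rank 1657 of 1718), with no peak in the other libraries. These positions are of the summit in G12V replicate 2. In MCF10A replicate 1 the summit was further downstream, 13930 bp from the 5′ end of the gene. In MCF10A replicate 1 the pileup was close to the smallest called in that list, 9 reads.

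DRAM1 encodes a lysosomal membrane protein needed for p53-induced autophagy. It had 2 p53 sites, at its start and 22029 bp upstream. The upstream site, chr12:102249150-102249480, with the full motif, was between genes, and DRAM1 had the nearest coding start. Its fold was 13.2 in G12V replicate 2 (33.2 reads over 1.60, rank 796 of 2619) and 3.44 in MCF10A replicate 1 (13 reads over 3.07). In the latter it ranked 1715 of 1718, among the weakest peaks called. The site at the start, chr12:102270998-102271442, had its summit 75 bp upstream of the start and was called in G12V replicate 2 alone, with a fold of 6.56 (25.2 reads over 3, rank 1559 of 2619).

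GLS2 encodes a mitochondrial glutaminase, which turns glutamine into glutamate. No p53 peak was within 1 kb of a GLS2 start. The single site, chr12:56863014-56863193, was 1650 bp past the end of the gene and 18867 bp downstream of its canonical start. It was in SPRYD4, which had the nearest coding start, at 716 bp, and the annotated 5′ end of MIP, a lens water channel gene, was 128 bp away. Called in G12V replicate 2 alone, it had a fold of 4.99 (13 reads over 1.80) and ranked 2523 of 2619. It was the weakest member peak of that library, and with −log10 q of at least 5 required it dropped out, leaving 7 sites near 5 genes.

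FDXR encodes ferredoxin reductase, which passes electrons to mitochondrial cytochrome P450 and iron-sulfur cluster enzymes. The p53 site, chr17:72868910-72869242, overlapped exon 1, with the summit 38 bp downstream of the canonical start and 5 bp from the start of another coding transcript. It was called in G12V replicate 2 alone, with a fold of 8.91 (34.6 reads over 3, rank 1031 of 2619). Among the member peaks of this library its pileup was second to that of SESN1. The local background of the 4 p53 peaks of this library within 1 Mb of the gene had a median of 2.19 times the genome rate, against 1.25 over all its peaks, and its part in the result was not tested.

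**Figure D3:**
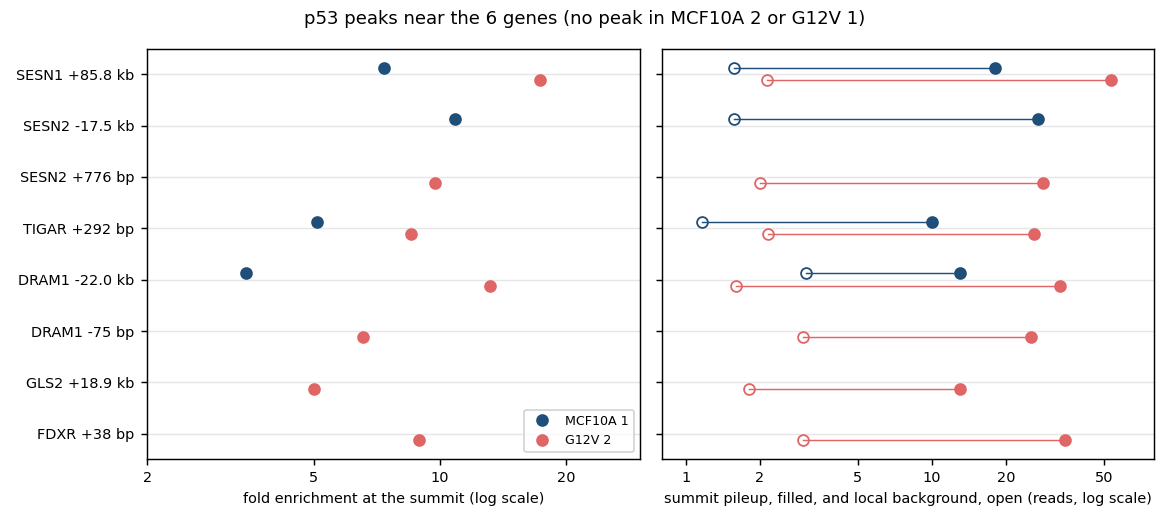
Fold enrichment (left, log scale) and summit pileup with local background (right, filled and open circles, reads on a log scale) of the 11 p53 peaks near the 6 genes, in MCF10A replicate 1 (blue) and G12V replicate 2 (red). Sites are named by distance from the canonical start. SESN1 in G12V replicate 2 was the highest in both panels, at 17.3-fold and 53.4 reads, and the sites seen in both libraries had the higher fold in G12V replicate 2.

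At the 3 sites seen in both libraries, those of SESN1, TIGAR and upstream of DRAM1, the rank percentile within the list (100 is the strongest peak) was higher in G12V replicate 2. The percentiles in MCF10A replicate 1 and G12V replicate 2 were 34.3 and 82.7 for SESN1, 3.61 and 50.1 for TIGAR, and 0.233 and 69.6 for DRAM1. The difference had a median of 48.3 percentage points (46.4 to 69.4). Over all 549 p53 sites called in these libraries alone, 68.3% were higher in G12V replicate 2, with a median difference of 14.7. These are 1 library a cell type, so the difference has no replicate check. No p53 site here had a peak in all 4 libraries, and so none could be tested.

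The ranks of the member peaks differed between the libraries that held them. In G12V replicate 2 the 7 peaks ranked from 455 to 2523, with a median percentile of 58.0 and a range of 3.70 to 82.7. In MCF10A replicate 1 the 4 peaks ranked from 629 to 1715, with a median percentile of 19.0 and a range of 0.233 to 63.4. Of the 454 peaks of G12V replicate 2 that ranked above the first member, 92.1% had a peak in MCF10A replicate 1, 70.0% in MCF10A replicate 2 and 75.6% in G12V replicate 1.

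Among the 2069 peaks of G12V replicate 2 that ranked from 455 to 2523, 46.4% had a peak in MCF10A replicate 1 (3 of the 7 members), 22.3% in MCF10A replicate 2 (0 of 7) and 6.28% in G12V replicate 1 (0 of 7). G12V replicate 1 thus lacked most of the like-ranked peaks too. With each p53 list cut to the 477 strongest peaks, the length of the shortest, a single site remained, that of SESN1. Without G12V replicate 2, 4 sites near 4 genes remained, and without MCF10A replicate 1, 7 sites near 6 genes.

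**Figure D4:**
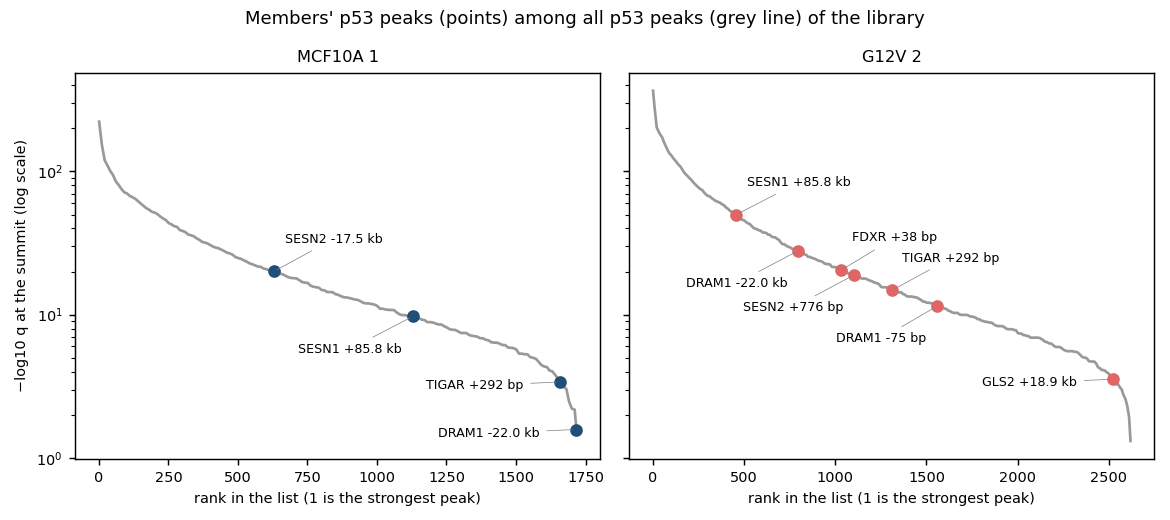
−log10 q at the summit (y axis, log scale) against rank in the list (x axis, 1 is the strongest) for all p53 peaks (grey line) and the members (labelled points), in MCF10A replicate 1 (left) and G12V replicate 2 (right). The member peaks begin at rank 629 on the left and 455 on the right, and the DRAM1 upstream peak is at rank 796 on the right but at 1715 of 1718 on the left.

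CTCF sites were present within 50 kb of 5 of the 6 genes, all but SESN1, against 85.5% of protein-coding genes. The SESN1 window, of 210538 bp, had no CTCF peak in any of the 4 libraries. The other windows held 4 CTCF sites at DRAM1, 4 at FDXR, 3 at TIGAR, 1 at SESN2 and 1 at GLS2. Of the 13 sites, 2 had a peak in all 4 libraries, near TIGAR and FDXR, so 2 of 6 genes had such a site against 51.7% of all genes. A further 7 sites had peaks in 3 libraries, 2 in 2 and 2 in 1. No CTCF site had peaks in both libraries of a cell type and in neither of the other. The matching shares of all CTCF sites were not counted, so these site counts describe the 13 sites alone.

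None of the 8 p53 sites overlapped a CTCF site. The share of all p53 sites that overlap one was not counted, so this describes these sites alone. The nearest CTCF summit in the same window was between 4793 bp away, at GLS2, and 37543 bp away, at the DRAM1 start. At SESN2 the CTCF site was between the 2 p53 sites, 6613 bp from the upstream one and 11674 bp from the intronic one.

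The CTCF motif, searched on both strands with at most 1 mismatch, was in 8 of the 13 sites, against 52.1% of all CTCF sites. It was present at both sites of all 4 libraries and at the named sites of SESN2, TIGAR, DRAM1 and GLS2. The TIGAR site nearest to the p53 site, 13533 bp from it, is not among those printed. The stretches below are shown because they are sequences at CTCF peaks in the same windows as the p53 sites. They are in hg19 on the strand of the gene, with the motif in capitals. They are from chr12:4386241-4386332, plus strand (TIGAR upstream), chr17:72861135-72861226, minus strand (FDXR intron), chr1:28575119-28575210, plus strand (SESN2 upstream), chr12:102233682-102233773, plus strand (DRAM1 upstream), and chr12:56858232-56858323, minus strand (GLS2 downstream).
TIGAR upstream: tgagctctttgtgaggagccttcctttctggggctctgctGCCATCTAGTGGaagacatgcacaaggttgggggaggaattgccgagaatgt
FDXR intron: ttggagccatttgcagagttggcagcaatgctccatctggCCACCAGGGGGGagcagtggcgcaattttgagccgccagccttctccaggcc
SESN2 upstream: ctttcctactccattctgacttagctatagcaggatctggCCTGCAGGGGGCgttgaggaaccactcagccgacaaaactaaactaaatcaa
DRAM1 upstream: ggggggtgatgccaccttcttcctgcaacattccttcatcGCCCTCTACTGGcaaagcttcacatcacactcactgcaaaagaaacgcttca
GLS2 downstream: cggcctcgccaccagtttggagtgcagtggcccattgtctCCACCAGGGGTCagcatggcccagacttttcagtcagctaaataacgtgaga

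The motifs upstream of TIGAR and DRAM1 had 0 mismatches and read on the strand opposite to the gene. Those of SESN2, GLS2 and FDXR had 1 mismatch and read on the strand of the gene.

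The CTCF site upstream of TIGAR, chr12:4386114-4386507, was inside CCND2, the cyclin D2 gene, 3372 bp from the start of CCND2 and 44079 bp upstream of the canonical TIGAR start. Its fold was 4.62 and 10.5 in MCF10A replicates 1 and 2 and 6.48 and 11 in G12V replicates 1 and 2. Its rank percentiles in the same order were 13.7, 69.1, 29.7 and 58.7, so both G12V values lay between the MCF10A ones. The mean was 41.4 ± 39.2 (SD, n = 2) in MCF10A and 44.2 ± 20.5 (SD, n = 2) in G12V, a difference of 2.75 percentage points (exact two-sided permutation test over the 6 assignments of 4 libraries, p = 1, where the smallest possible p is 0.33). The cell types did not differ beyond the spread of the replicates.

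The other site of all 4 libraries, chr17:72860930-72861447, was in intron 6 of FDXR, 7927 bp downstream of the canonical start. MCF10A replicates 1 and 2 gave folds of 4.48 and 11.9, and G12V replicates 1 and 2 gave 6.16 and 6.57. The percentiles, in the same order, were 21.5, 80.8, 66.2 and 48.9. The mean was 51.1 ± 41.9 (SD, n = 2) in MCF10A and 57.6 ± 12.2 (SD, n = 2) in G12V, a difference of 6.44 percentage points (same exact permutation test, p = 1). Ranked by fold enrichment instead, the difference was −14.9, so its direction rests on the measure. At the TIGAR site the same ranking gave 11.6 percentage points. At both sites the groups overlapped (0 of 2 sites without overlap, against 30.5% of the 8006 CTCF sites of all 4 libraries).

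At the FDXR site the summit pileup was 21.4 and 38.0 reads in MCF10A and 29.8 and 45.0 reads in G12V, over local backgrounds of 4, 2.27, 4 and 6. G12V replicate 2 thus had the highest pileup and also the highest background. Across all CTCF peaks within 1 Mb of FDXR, the local background had a median of 1.79 and 2.18 times the genome rate in MCF10A and of 2.20 and 3.03 times in G12V. The medians over all peaks of the same libraries were 1.79, 2.18, 1.99 and 2.27. Background near FDXR was above the library's own median in both G12V libraries and at it in both MCF10A libraries, and its part in the ranks was not tested.

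Each CTCF site with peaks in 3 libraries lacked a replicate 1 library, either of MCF10A or of G12V. The sites with peaks in 2 libraries had them in the replicate 2 libraries. In MCF10A and G12V, the replicate 1 lists held 11346 and 12004 CTCF peaks, with 6 near the genes in each. The replicate 2 lists held 20136 and 27678, with 11 and 12 near the genes. The part of list length in these absences was not tested. The SESN2 site, chr1:28574924-28575325, 10898 bp upstream of the start, had percentiles of 93.7 in MCF10A replicate 2 and 68.6 and 67.5 in G12V, with no peak in MCF10A replicate 1. The GLS2 site, chr12:56858107-56858469, 6443 bp past the end of the gene and inside MIP, had percentiles of 71.2 and 51.5 in MCF10A and 91.0 in G12V replicate 2, with no peak in G12V replicate 1. The DRAM1 site nearest to its 5′ end, chr12:102233518-102233992, 37618 bp upstream, had percentiles of 85.7 and 77.9 in MCF10A and 86.2 in G12V replicate 2. None of the 4 DRAM1 sites had a peak in G12V replicate 1, the library with 12004 CTCF peaks. The TIGAR site chr12:4416851-4417301 was at the start of the long transcript, 209 bp downstream, with percentiles of 22.3 and 55.4 in MCF10A and 51.8 in G12V replicate 2.

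The remaining CTCF sites were spread from the strong to the weakest ranks. At DRAM1, a site at the start of GNPTAB, a lysosomal enzyme targeting gene, had percentiles of 92.5 in MCF10A replicate 2 and 56.8 in G12V replicate 2. The other sites in the DRAM1 body, 40331 and 62374 bp downstream, held no CTCF motif and had percentiles between 34.4 and 63.8. At TIGAR, a site in an exon 34944 bp downstream of the canonical start ranged from 3.71 in MCF10A replicate 2 to 61.4 in G12V replicate 1. At FDXR, the site 39 bp past the end of the gene had percentiles of 31.1 in MCF10A replicate 2 and 40.6 and 40.3 in G12V. The last FDXR sites were seen in 1 G12V library each, at percentiles of 19.0 in replicate 1 and 1.71 in replicate 2.

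**Figure D5:**
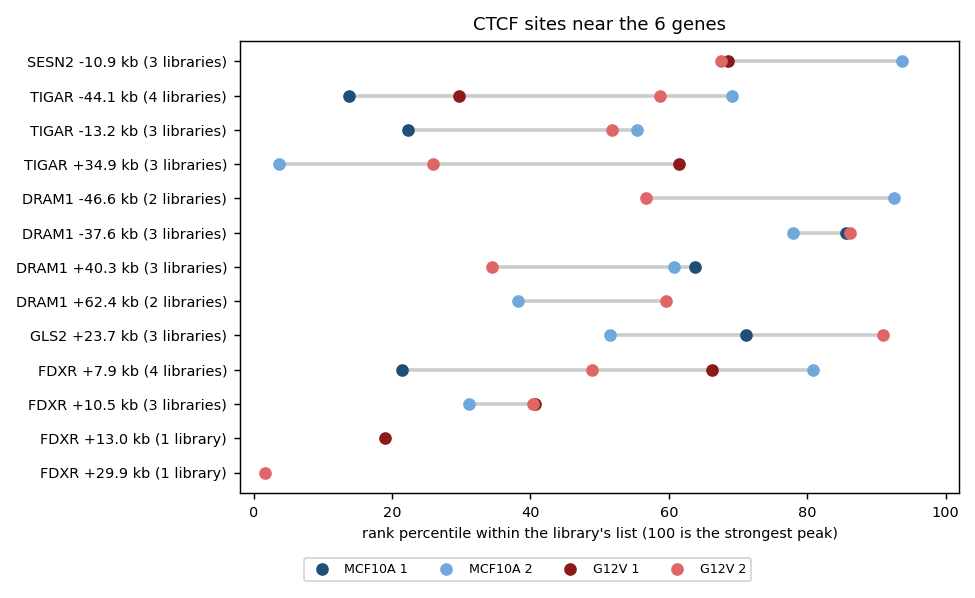
Rank percentile within the library's list (x axis, 100 is the strongest peak) of the 13 CTCF sites near 5 of the genes, named by distance from the canonical start, with a point for each library that had a peak and a grey line for their range. At the sites of all 4 libraries the MCF10A replicates stand further apart than the means of the cell types, 13.7 and 69.1 for TIGAR and 21.5 and 80.8 for FDXR.

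Other genes that link p53 to metabolism, redox control or autophagy were read in the same way from a list of 19. A p53 site lay within 50 kb of 10 of them, against the 18.9% of all genes given above. By library, 5, 3, 2 and 10 of them had a peak in MCF10A replicates 1 and 2 and G12V replicates 1 and 2. The shares of all genes in the same order were 10.7%, 5.92%, 3.48% and 17.1%. Of the 19, 2 had a site in all 4 libraries, GPX1 and ULK2, against 2.4% of all genes. GPX1, a glutathione peroxidase, had its site 37 bp from its 5′ end, with folds of 9.24 and 9.20 in MCF10A and 12.7 and 36.6 in G12V. The site of ULK2, a kinase that starts autophagy, was past the end of the gene, 114612 bp from its 5′ end, with folds of 18.9 and 11.1 in MCF10A and 21 and 41.8 in G12V. The libraries without a peak near the 6 genes thus had peaks within 50 kb of a few listed genes. These were GPX1 and ULK2 in G12V replicate 1, and GPX1, ULK2 and SCO2 in MCF10A replicate 2. Only the GPX1 site was close to the 5′ end of its gene. The gene nearest to each of these sites was not looked up.

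Of the other 8 genes with a site, TP53INP1, PRKAB1, PRKAB2, PANK1 and TP53I3 had one in G12V replicate 2 alone. TP53INP1, an autophagy and stress protein, had the strongest of these, 201 bp from its 5′ end, with a fold of 15.4 at rank 443. DDIT4, an mTORC1 inhibitor, had its strongest site 24496 bp from its 5′ end, at folds of 8.29 in MCF10A replicate 1 and 18.3 in G12V replicate 2. LPIN1 had a site in the same libraries, 45951 bp from its 5′ end, at folds of 10.3 and 8.86. SCO2, a cytochrome oxidase assembly gene, had one in 3 libraries, 49436 bp from its 5′ end, at folds between 5.52 and 6.10. The paralogues SESN3 and DRAM2 had no p53 site in any library. A CTCF site was near 16 of the 19 genes, and a site of all 4 libraries near 11, shares close to the 85.5% and 51.7% of all genes.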

How the data were processed

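p53 and CTCF ChIP-seq was analysed from 8 peak lists, 1 per library, grouped by sample title. Per the study's methods and the submitters' processing notes, the authors aligned reads to hg19 with Bowtie, kept unique alignments and ran MACS2 on each library against an input at its defaults (q-value of 5%). The deposited lists hold, for every peak, a score (a whole-number form of −log10 q), the fold enrichment (a ratio), the −log10 p-value, the −log10 q-value and the summit. Deposited lists are per library, whereas the study pooled replicates.

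Ranks within a list were by −log10 q. Summit pileup and background were solved from fold and p-value, and the calling depth from the lowest background, for a mappable genome of 2.7 Gb. These steps were tested on simulated data. Genes and sequence were from GENCODE 44 on GRCh37, and no peak ended past a chromosome. Python 3.11.15, pandas 2.3.3, numpy 2.4.6 and scipy 1.17.1 were used. Named were every p53 site, and per gene the CTCF site of all 4 libraries and the one nearest to the 5′ end. The other CTCF sites were named after their values were seen. The members and gene lists were chosen with earlier results of these data known. Alternatives covered the window, −log10 q, list length, overlap, motif settings, ranking by fold, a replicate block and leaving out each library. The lists hold no read counts over regions, so no count test was run.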

Additional observations from a re-analysis of the deposited data

How the results depend on the processing

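The 8 p53 sites became 1 with lists of equal length, near 1 gene, and 4 to 8 when a library was left out, and 0 genes had a p53 site of all libraries under any alternative run. The 13 CTCF sites became 8 with a window of 10 kb, 29 with 100 kb and 23 with 100 kb around the start. The 2 CTCF sites of all 4 libraries became 1, 8 and 7 with these windows and 0 with lists of equal length. With a library left out, the count was of sites with peaks in all remaining libraries, a looser demand. It was 2 to 6 (5 without MCF10A replicate 1 and 6 without G12V replicate 1). With at most 2 mismatches, 2 p53 sites held a motif, and with no mismatch 2 CTCF sites did. The rank difference ranged from −25.0 to 30.5 at TIGAR and from −23.2 to 36.1 at FDXR when a library was left out, with the sign turning at TIGAR without MCF10A replicate 1 (−25.0) or G12V replicate 2 (−11.7) and at FDXR without MCF10A replicate 1 (−23.2) or G12V replicate 1 (−2.19). Ranked by fold it was −14.9 at FDXR and 11.6 at TIGAR. With lists of equal length these sites kept peaks in 3 libraries and gave no value. The cause of these changes was not tested. Only the lists of equal length, the −log10 q threshold and the runs without a library hold fewer peaks or libraries. A replicate block left the differences at 2.75 and 6.44 (exact permutation p = 1, smallest possible 0.5). At sites of all 4 libraries, the deviations of equally numbered libraries correlated at 0.0423 over 8006 CTCF sites and −0.0508 over 332 p53 sites. A correlation cannot see a shift shared by a whole list, so it does not settle whether equal numbers mark pairs. The median fold of the CTCF lists was 7.10 (MCF10A) and 7.16 (G12V) in replicates 1 and 8.89 and 9.99 in replicates 2. The lengths of the p53 lists did not follow the replicate number. The other alternatives moved no count by over 1.5 times. The motif search of the whole site was chosen after seeing the data.

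The p53 lists differed in length beyond their calling depths: MCF10A replicates 1 and 2, at 21.4 and 20.1 M reads, called 1718 and 885 peaks. G12V replicate 1, at 9.26 M reads, called 477. The smallest pileup called was 7.00 to 10.1 reads across the p53 libraries, with those of G12V replicate 2 scaled down.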
